A study of Mus musculus with 9 samples.

Results

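The genes described here are 10 extracellular matrix proteases, cell surface sheddases and protease inhibitors, chosen by symbol from a table of 55401 genes. They are 6 matrix metalloproteases (Mmp8, Mmp9, Mmp12, Mmp13, Mmp14 and Mmp19), the tissue inhibitors Timp1 and Timp2, and the membrane-anchored proteases Adam8 and Adam17. The choice was by symbol, made with earlier results of these data known. RNA was sequenced from wild-type RAW264.7 cells, a mouse macrophage line that came from a tumor induced by Abelson murine leukemia virus in a male. The cells received the solvent DMSO, LPS (lipopolysaccharide, the bacterial wall component that activates macrophages, given here with DMSO), or LPS with skatole (LPS + Ska), an indole derivative formed by gut bacteria, for 24 h. The DMSO, LPS and LPS + Ska groups each held 3 samples, numbered 5, 6 and 7, and no source states that they were separate cultures, so every p-value below measures only the spread between these columns. All samples were of 1 cell line, and levels are in TPM, in which each library is scaled to the same total and each gene to its length, so that levels can be compared between genes but the sequencing depth is lost.

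Matrix metalloproteases are zinc enzymes that are made as inactive precursors, released from the cell or held at its surface, and switched on by removal of a propeptide. TIMPs bind the active enzymes and block them, so that tissue breakdown depends on both sides. ADAMs sit in the membrane and cut other surface proteins off the cell, Adam17 being the enzyme that releases tumor necrosis factor. In joints, macrophage and synovial proteases of these families are studied for their part in the loss of cartilage collagen and proteoglycan, which is the setting in which skatole was tested.

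One property of the table bears on every comparison. In the LPS and LPS + Ska groups, replicate 5 was the mean of replicates 6 and 7, within 1e-05 TPM, for 17950 of 17950 and 17658 of 17658 genes with all 3 columns above 0, against 10 of 15721 in the DMSO group. The 3 columns also held 1 identical value above 0 in 619 and 602 genes of the treated groups and in 0 genes of the DMSO group. Such columns are not 3 independent measurements, and their spread may understate that of separate cultures. The median SD of a gene on the log2(TPM + 1) scale was 0.14 with DMSO, 0.061 with LPS and 0.13 with LPS + Ska. For this reason each call was recomputed in 2 further ways: with 2 values rebuilt from each treated group in place of its 3 columns, which are not known to be single libraries either, and with 1 column (replicate 5) per treated group and the spread taken from DMSO alone. The latter was chosen after the data were seen. Where the columns differ, the 2 rebuilt values lie nearer to replicate 5 than replicates 6 and 7 do. For Mmp12 with LPS + Ska they were 11.1 and 9.75 TPM, against 11.8 and 9.07 TPM in replicates 6 and 7. That fit thus has fewer values per group with a smaller spread between them. A call that held in it is therefore no safeguard against an understated spread.

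All 10 genes were above 0 in at least 1 column. A mean of at least 1 TPM over the 9 columns, the limit for testing, was met by Mmp9, Mmp12, Mmp19, Timp1, Adam8 and Adam17, 6 of the 10, while Mmp8, Mmp13, Mmp14 and Timp2 stayed below it. A gene was called when limma gave a Benjamini-Hochberg adjusted p below 0.05 over the 12819 genes tested and a fold change above 1.5 or below 0.67.

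**Figure D1:**
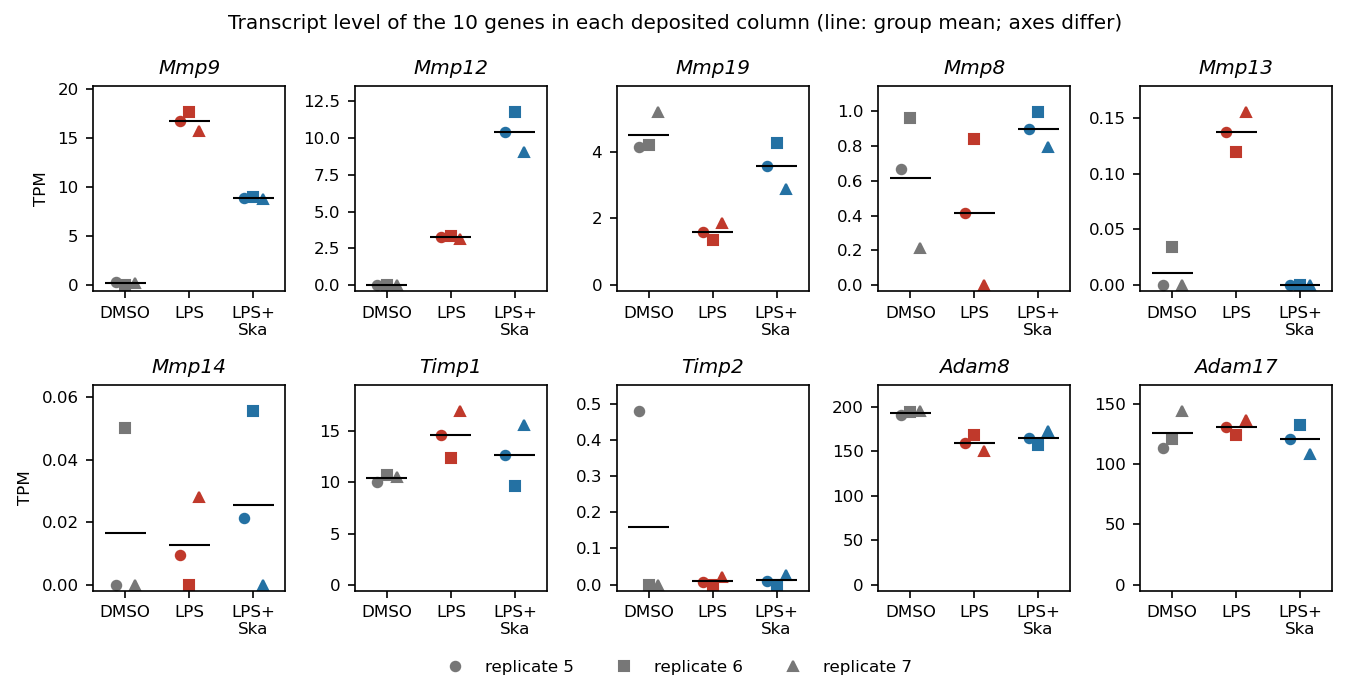
Each panel plots the TPM of 1 gene (vertical axis, linear, own scale per gene) in the 9 columns, grouped as DMSO, LPS and LPS + Ska, with 1 marker shape per replicate number and a line at the group mean. Mmp9 was highest with LPS (15.7 to 17.6 TPM), Mmp12 with LPS + Ska (9.07 to 11.8 TPM) and Mmp19 with DMSO (4.12 to 5.18 TPM), and Adam8 and Adam17 lay above 100 TPM in every column.

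Mmp12 and Mmp13 are neighbours on chromosome 9, and the bases before their start sites are shown because one of them rose and the other stayed near 0. In the GRCm38 annotation, 10 Mmp genes lie within 427.1 kb (chr9:7272514-7699585). Of these, Mmp12 alone exceeded 1 TPM in any column, Mmp8 reached 0.994 TPM and Mmp13 reached 0.155 TPM, and the other 7 (Mmp1a, Mmp1b, Mmp3, Mmp7, Mmp10, Mmp20 and Mmp27) were listed at 0 in all 9 columns. The following are the 250 bases before 2 RefSeq starts of Mmp12 (chr9:7344147-7344396 and chr9:7347124-7347373, the latter inside the span of the gene) and 1 of Mmp13 (chr9:7272264-7272513), GRCm38.p6, plus strand, 5′ to 3′, with capitals on matches to the AP-1 motif TGANTCA.
Mmp12, first start: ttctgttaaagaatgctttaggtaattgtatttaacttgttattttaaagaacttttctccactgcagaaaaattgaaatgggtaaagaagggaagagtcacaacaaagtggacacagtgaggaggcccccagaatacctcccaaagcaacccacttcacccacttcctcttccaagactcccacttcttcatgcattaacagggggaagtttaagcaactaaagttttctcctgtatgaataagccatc
Mmp12, second start: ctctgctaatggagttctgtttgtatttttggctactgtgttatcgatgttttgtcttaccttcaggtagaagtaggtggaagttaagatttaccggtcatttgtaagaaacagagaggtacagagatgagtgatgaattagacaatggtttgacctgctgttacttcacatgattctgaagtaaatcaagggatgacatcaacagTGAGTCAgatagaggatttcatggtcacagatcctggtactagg
Mmp13: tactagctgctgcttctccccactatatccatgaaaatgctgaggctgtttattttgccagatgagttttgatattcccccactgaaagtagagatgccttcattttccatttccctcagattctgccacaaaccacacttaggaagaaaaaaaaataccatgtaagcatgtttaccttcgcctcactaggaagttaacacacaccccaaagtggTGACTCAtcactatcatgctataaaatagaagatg

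AP-1 is the dimer of Fos and Jun family proteins known for acting on collagenase genes. A search of both strands for TGANTCA, which reads alike on either, gave 1 match 44 bases before the second Mmp12 start and 1 match 35 bases before the Mmp13 start, counted to the first base of the match, and none before the first Mmp12 start. RefSeq promoters were present for 8 of the 10 genes (9 windows), Mmp9 and Mmp19 having no entry, and the motif was in 2 of the 9 windows and in 6.75% of 32851 promoter windows of the same length. The kappa B motif of NF-kB, the factor that LPS activates, was searched as GGG, any 5 bases and CC, on both strands, and found in 3 windows (the first Mmp12 start, Timp1 and Adam17) and in 45.8% of all promoters. The core GCGTG of the aryl hydrocarbon receptor, a receptor for indoles, was in 3 windows (Timp1, Timp2 and Adam17) and in 28.2% of all promoters. The antioxidant response core TGACNNNGC was in 1 (Timp2) and in 10.2% of all. These matches describe letters and not binding.

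With LPS, Mmp9 and Mmp12 rose and Mmp19 fell. That is 2 of the 6 tested genes called higher, where 12.7% of all genes tested were, and 1 called lower, where 20.0% of all genes were. Mmp9 and Mmp12 had DMSO means below 1 TPM and met the limit for testing only through the treated columns, so their being among the tested genes and their being higher than with DMSO are not separate facts, and nothing is read from that count. Timp1, Adam8 and Adam17 stayed inside the fold change limits. The comparison asks what the inflammatory stimulus alone did to the protease genes.

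Mmp9 (ENSMUSG00000017737, chr2:164940780-164955850, plus strand) encodes gelatinase B, which cleaves denatured collagen and type IV collagen of basement membranes. It stood at 0.291, 0.0394 and 0.234 TPM with DMSO, at 16.7, 17.6 and 15.7 TPM with LPS, and at 8.88, 8.95 and 8.82 TPM with LPS + Ska. The LPS columns were highest, the LPS + Ska columns lay between, the DMSO columns were near 0, and the groups did not overlap. From DMSO to LPS the log2 fold change of TPM + 1 was 3.90 (SE 0.11, limma adjusted p = 2.6e-08), with an adjusted p between 1.7e-08 and 0.0021 over the alternatives. The added 1 TPM compresses this value, since the means of the columns, 0.188 ± 0.132 TPM (SD, n = 3) with DMSO and 16.7 TPM with LPS, differed 88.7-fold, and with a pseudocount of 0.1 the log2 difference was 5.99.

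Mmp12 (ENSMUSG00000049723, chr9:7344381-7369499, plus strand) encodes macrophage elastase, which cuts elastin and many other matrix proteins. The DMSO columns were 0, 0.0193 and 0 TPM, the LPS columns 3.26, 3.38 and 3.14 TPM, and the LPS + Ska columns 10.4, 11.8 and 9.07 TPM. The order was thus DMSO, LPS, LPS + Ska, without overlap. The LPS difference was 2.08 on the log2 scale (SE 0.13, limma adjusted p = 1.4e-06), and its adjusted p over the alternatives ran from 3.9e-07 to 0.0079. With a pseudocount of 0.1 the value was 4.98, so its size depends on the pseudocount. No ratio of TPM is given because 2 DMSO columns were listed at 0.

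Mmp19 (ENSMUSG00000025355, chr10:128790910-128800824, plus strand), a protease of broad reach over basement membrane proteins, was the leading matrix metalloprotease transcript of untreated cells. Its columns were 4.12, 4.21 and 5.18 TPM with DMSO, 1.60, 1.35 and 1.85 TPM with LPS, and 3.57, 4.26 and 2.88 TPM with LPS + Ska. LPS columns lay below all others, while 1 LPS + Ska column (4.26 TPM) fell among the DMSO columns. The LPS difference was -1.08 on the log2 scale (SE 0.15, limma adjusted p = 0.00026), with an adjusted p of 0.0002 to 0.03 over the alternatives, and the LPS mean was 0.355 times the DMSO mean. The exons of Mmp19 share 789 bases, 22.3% of its exonic length, with the opposite-strand gene Tmem198b, whose means were 4.42, 2.79 and 3.82 TPM in the DMSO, LPS and LPS + Ska groups. The log2 difference of Tmem198b with LPS was -0.51 (limma adjusted p = 0.0046). No source states that reads were counted by strand, so the share of either gene in those bases cannot be told apart.

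Skatole together with LPS, set against LPS alone, moved the same 3 transcripts in the main fit: Mmp9 was lower and Mmp12 and Mmp19 were higher. For the 6 tested genes this is 2 called higher (3.35% of all genes tested) and 1 called lower (6.14% of all genes). The genes were chosen with earlier results of these data known, so nothing is read from these counts. The comparison asks how cells given LPS with skatole differed from cells given LPS. No sample received skatole without LPS. An effect of skatole apart from LPS and a change of the response to LPS therefore cannot be told apart. All 3 calls held with the rebuilt values, and none held with 1 column per treated group and the DMSO spread, a fit that called 0 genes of 12819 (1611 at an unadjusted p below 0.05).

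The Mmp9 level with LPS + Ska was 0.532 times that with LPS. On the log2(TPM + 1) scale the difference was -0.84 (SE 0.11, limma adjusted p = 0.001), the adjusted p being 0.013 with the rebuilt values and 0.41 with the DMSO spread. A pseudocount of 0.1 in place of 1 also ended the call (adjusted p = 0.074), and over all alternatives the p ran from 0.00068 to 0.41. Mmp9 remained above its DMSO level, with a log2 difference between LPS + Ska and DMSO of 3.06 (SE 0.11, limma adjusted p = 1.2e-07), or 5.09 with a pseudocount of 0.1.

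The Mmp12 level with LPS + Ska was 3.20 times that with LPS, in the direction in which LPS itself had moved it. The log2 difference was 1.42 (SE 0.13, limma adjusted p = 0.00013), with an adjusted p of 0.0025 with the rebuilt values, 0.25 with the DMSO spread and 4.4e-05 at the lowest of the alternatives. From DMSO to LPS + Ska it was 3.50 (SE 0.13, limma adjusted p = 9.9e-08), or 6.62 with a pseudocount of 0.1. Thus macrophage elastase and gelatinase B, both higher with LPS than with DMSO, differed in opposite directions once skatole was added.

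The Mmp19 level with LPS + Ska was 2.23 times that with LPS. The log2 difference was 0.81 (SE 0.15, limma adjusted p = 0.005), with an adjusted p of 0.019 with the rebuilt values, 0.38 with the DMSO spread and 0.0022 at the lowest of the alternatives. Against DMSO the value was -0.27, with a 95% interval from -0.62 to 0.07 (limma adjusted p = 0.15), an interval that leaves room for a decrease as well as for no difference. Tmem198b, which shares exonic bases with it, differed by 0.35 between LPS + Ska and LPS (limma adjusted p = 0.055).

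LPS + Ska against DMSO called 2 of the 6 tested genes higher, Mmp9 and Mmp12, where 11.4% of all genes were called higher, and 0 lower, where 25.3% were. As above, both genes were tested only because the treated columns raised their means, so the count is a description. The adjusted p of both stayed at or below 0.0028 over the alternatives. This comparison shares its columns with the other comparisons, so the 3 sets of values are not independent of one another.

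**Figure D2:**
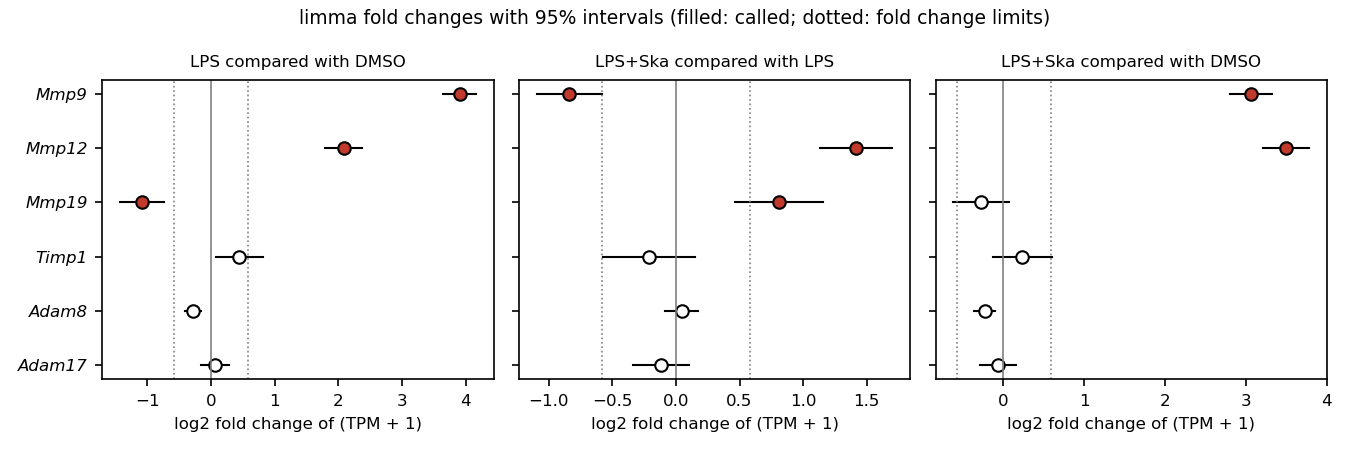
Points are limma log2 fold changes of TPM + 1 (horizontal axis, own range per panel) for the 6 tested genes in the 3 comparisons, bars are 95% intervals, filled points are called and dotted lines mark fold changes of 1.5 and 0.67. Mmp9 lay at 3.90 for LPS over DMSO and at -0.84 for LPS + Ska over LPS, Mmp12 was positive in all panels (2.08, 1.42 and 3.50), and the intervals of Adam17 crossed 0 in each.

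The mix of matrix metalloprotease transcripts differed more than their total between the stimulated groups. Summed over the 6 genes, the level was 5.08 to 5.63 TPM with DMSO, 20.9 to 23.3 TPM with LPS and 21.6 to 26.0 TPM with LPS + Ska, so that the columns of the stimulated groups overlapped. Mmp19 made up 79.3% to 92.0% of the sum with DMSO, 5.78% to 8.84% with LPS and 13.4% to 16.4% with LPS + Ska. Mmp9 made up 75.3% to 75.6% with LPS and 34.4% to 40.9% with LPS + Ska, against 0.742% to 5.72% with DMSO. Mmp12 made up 14.5% to 15.01% with LPS and 42.1% to 45.2% with LPS + Ska, and at most 0.364% with DMSO. In transcript terms, cells given LPS held chiefly the gelatinase, and cells given LPS with skatole held the elastase and the gelatinase together. Protein and enzyme activity were not measured in these data.

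**Figure D3:**
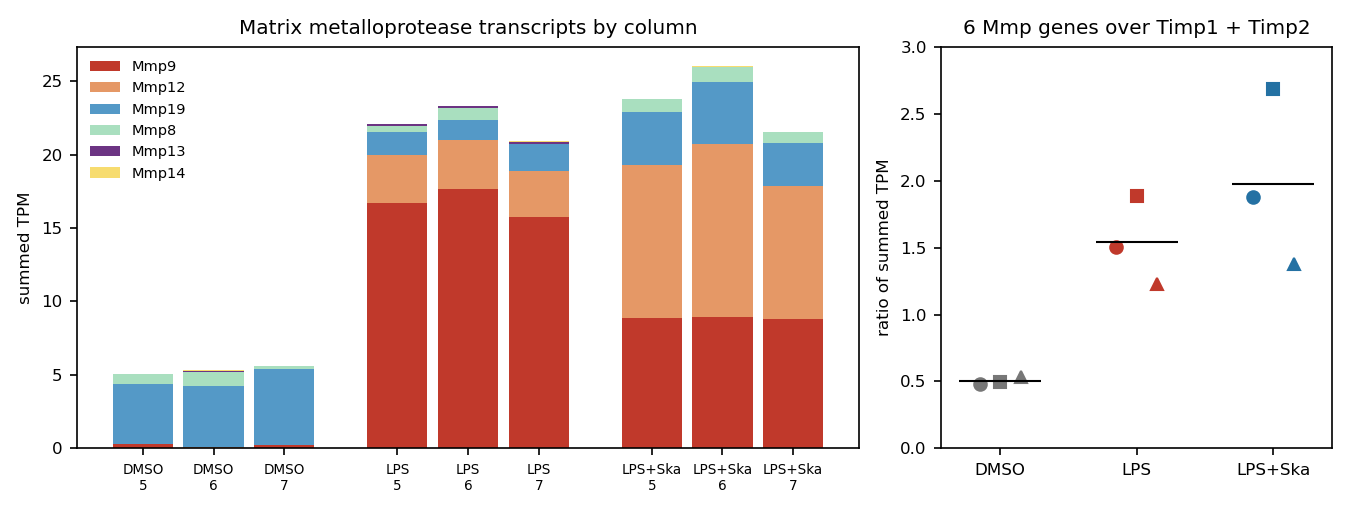
On the left, stacked bars give the summed TPM of the 6 Mmp genes in each of the 9 columns (vertical axis from 0), by gene, and on the right, points give the ratio of that sum to the sum of Timp1 and Timp2 per column, with a line at the group mean. Mmp19 fills most of the DMSO bars (5.08 to 5.63 TPM in all), Mmp9 most of the LPS bars, and Mmp12 and Mmp9 share the LPS + Ska bars, while the ratio lies between 0.482 and 0.535 with DMSO and between 1.23 and 2.68 in the treated columns.

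The 3 remaining matrix metalloproteases were scarce. Mmp8 (ENSMUSG00000005800, chr9:7558456-7568485), the collagenase that neutrophils store, stood at 0.668, 0.958 and 0.214 TPM with DMSO, 0.414, 0.838 and 0 TPM with LPS, and 0.894, 0.994 and 0.793 TPM with LPS + Ska. These columns overlapped between all groups. Mmp13 (ENSMUSG00000050578, chr9:7272514-7283331), the collagenase of cartilage breakdown, was listed at 0, 0.0341 and 0 TPM with DMSO, at 0.137, 0.120 and 0.155 TPM with LPS, and at 0 in all columns with LPS + Ska. Its LPS columns were thus the highest, but at a level where a few fragments can set a value, and depth is unknown. Mmp14 (ENSMUSG00000000957, chr14:54431612-54445364), the membrane-bound protease that activates pro-Mmp2, did not exceed 0.0555 TPM in any column. When the limit of 1 TPM was dropped, none of the 4 scarce genes was called. Mmp13 had a log2 difference of 0.17 with LPS (limma adjusted p = 0.00032) and of -0.19 for LPS + Ska over LPS (limma adjusted p = 0.00053), both far inside the fold change limits, which the added 1 TPM makes hard to reach for a gene at this level.

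Of the inhibitors, Timp1 was above 1 TPM in every column and Timp2 was below it in every column. Timp1 (ENSMUSG00000001131, chrX:20870166-20874735, plus strand), a secreted inhibitor that blocks Mmp9 among others, was at 10.1, 10.7 and 10.5 TPM with DMSO, at 14.7, 12.4 and 17.0 TPM with LPS, and at 12.7, 9.70 and 15.6 TPM with LPS + Ska. All LPS columns lay above the DMSO columns, whereas the LPS + Ska columns reached from below the DMSO columns to within the LPS columns. The LPS difference was 0.45 on the log2 scale, with an interval from 0.08 to 0.81 (limma adjusted p = 0.038). This difference did not reach the fold limit, and its limma adjusted p ran from 0.014 to 0.13 over the alternatives. The difference between LPS + Ska and LPS was -0.21, with an interval from -0.57 to 0.15 (limma adjusted p = 0.36), so a decrease of about the size of the LPS difference is inside the interval. Timp1 lies within the gene Syn1 on the other strand without sharing exonic bases, and Syn1, a gene of neuronal synapses, was at 0.610, 7.91 and 3.27 TPM in the DMSO, LPS and LPS + Ska groups. Its part in the Timp1 values was not tested.

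Timp2 (ENSMUSG00000017466, chr11:118301069-118355740, minus strand), which inhibits metalloproteases and also joins pro-Mmp2 to Mmp14, was at 0.480 TPM in 1 DMSO column and at 0 in the other two, and no treated column exceeded 0.0276 TPM. Timp3, Timp4 and A2m, further inhibitors, were listed at 0 in all 9 columns, and Reck, a membrane-anchored inhibitor, did not exceed 0.0122 TPM. Timp1 was therefore nearly the whole inhibitor level. The sum of the 6 Mmp genes over the sum of Timp1 and Timp2 was 0.482 to 0.535 with DMSO, 1.23 to 1.88 with LPS and 1.38 to 2.68 with LPS + Ska. The treated columns lay above the DMSO columns and overlapped each other. With 3 columns against 3, and those tied, no p-value is given for this ratio.

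Adam8 and Adam17 were the most abundant of the 10 genes and did not pass the fold change limits in any comparison. Adam8 (ENSMUSG00000025473, chr7:139978932-139992562, minus strand), a protease of leukocytes linked to their migration, was at 191, 195 and 195 TPM with DMSO, at 160, 169 and 151 TPM with LPS, and at 165, 157 and 172 TPM with LPS + Ska. Every treated column was below every DMSO column. The differences from DMSO were small, -0.28 with LPS (SE 0.057, limma adjusted p = 0.0022) and -0.23 with LPS + Ska (SE 0.057, limma adjusted p = 0.0055). The scaling of the table bears on them, since scaling by the median ratio moved the median log2 difference of all genes between LPS + Ska and DMSO from -0.18 to -0.01, and that of Adam8 to -0.05 (limma adjusted p = 0.52, the highest of its alternatives, which began at 0.0035). Between LPS + Ska and LPS, Adam8 differed by 0.05, with an interval from -0.08 to 0.17. That interval holds no change as large as 1.5-fold, but the columns of both groups are tied, so it may be too narrow.

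Adam17 (ENSMUSG00000052593, chr12:21323509-21373632, minus strand) was at 113, 121 and 144 TPM with DMSO, at 130, 124 and 136 TPM with LPS, and at 120, 132 and 108 TPM with LPS + Ska. The columns of the 3 groups overlapped. The differences were 0.06 with LPS (interval from -0.17 to 0.28, limma adjusted p = 0.64), -0.12 for LPS + Ska over LPS (interval from -0.34 to 0.10, limma adjusted p = 0.40) and -0.06 for LPS + Ska over DMSO (interval from -0.28 to 0.16, limma adjusted p = 0.60). The signs of the differences from DMSO turned under some alternatives. The exons of Adam17 share 311 bases, 4.35% of its exonic length, with the opposite-strand gene Iah1. Iah1 had means of 41.2, 23.8 and 31.9 TPM in the DMSO, LPS and LPS + Ska groups. It fell by 0.76 with LPS (limma adjusted p = 0.00011), and its part in the Adam17 values was not tested. By mean level Adam8 ranked 791, 972 and 934 and Adam17 1308, 1251 and 1331 among the 12912, 12748 and 12587 genes with a mean of at least 1 TPM in the DMSO, LPS and LPS + Ska groups, while Mmp9 ranked 6996 with LPS and 8541 with LPS + Ska, and Mmp12 ranked 10674 and 8175.

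The wider protease pathway was read from 7 lists of 87 other genes, of which 23 were abundant enough to test. Of these 23, 4 were higher and 7 lower with LPS, 0 were higher and 1 was lower for LPS + Ska over LPS, and 3 were higher and 10 lower for LPS + Ska over DMSO. Over all genes tested, 12.7% were higher and 20.0% lower with LPS, 3.35% higher and 6.14% lower for LPS + Ska over LPS, and 11.4% higher and 25.3% lower for LPS + Ska over DMSO, and the counts of the small lists below are descriptions to be read against these shares. The median log2 difference of all genes in the same comparisons was -0.07, -0.10 and -0.18. The other 17 matrix metalloproteases gave no gene to test: 9 were at 0 in all columns, and their summed level was 1.71 to 1.90 TPM with DMSO, 0.806 to 0.864 TPM with LPS and 0.656 to 1.09 TPM with LPS + Ska.

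Among 11 other ADAMs, 3 were tested, at levels like those of Adam8 and Adam17, and 6 were at 0 throughout. With LPS, 0 were higher and 1 was lower, Adam15, a disintegrin-bearing protease that binds integrins, at 258, 214 and 249 TPM with DMSO, 137, 143 and 131 TPM with LPS and 159, 158 and 160 TPM with LPS + Ska. Its log2 difference was -0.80 with LPS (limma adjusted p = 1.4e-05). For LPS + Ska over DMSO it was -0.59 (limma adjusted p = 8e-05), a call that ended with median-ratio scaling (-0.41) and without DMSO replicate 5 or 7. Of 19 ADAMTS genes, proteases that cut proteoglycans and procollagens, 11 were at 0 and only Adamts10 was tested. It fell from 42.4, 32.5 and 26.0 TPM with DMSO to 7.28, 8.46 and 6.11 TPM with LPS, a log2 difference of -2.05 (limma adjusted p = 8.5e-06), and stood at 6.94, 6.91 and 6.96 TPM with LPS + Ska.

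Of 14 genes that mature or escort these proteases, 9 were tested. With LPS 2 were lower (20.0% of all genes), 0 were called for LPS + Ska over LPS, and 5 were lower for LPS + Ska over DMSO (25.3% of all genes), with medians of -0.50, -0.16 and -0.63. Tspan14, a tetraspanin that accompanies Adam10, fell by 0.86 with LPS and by 1.03 with LPS + Ska (limma adjusted p = 1.3e-05 and 3.6e-06), and the related Tspan17 fell by 1.32 and 1.05 (limma adjusted p = 0.00036 and 0.0013). Furin, the convertase that removes the propeptide of Adam17 and Mmp14, was at 32.2, 33.9 and 38.2 TPM with DMSO, 23.9, 21.5 and 26.3 TPM with LPS and 17.2, 18.1 and 16.3 TPM with LPS + Ska. It fell by 0.97 for LPS + Ska over DMSO (limma adjusted p = 2e-05), and Bsg, the surface protein known as an inducer of metalloproteases, fell by 0.78 (limma adjusted p = 0.00062). The fifth, Pcsk7, a convertase named here after its value was seen, fell by 0.63 (limma adjusted p = 0.00018), a call that ended with median-ratio scaling (-0.45) and without DMSO replicate 6.

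The plasminogen system yields plasmin, which can activate pro-metalloproteases. Of 6 genes 4 were tested, of which 3 (Plau, Plaur and Serpinb2) were higher with LPS (12.7% of all genes), 1 was lower for LPS + Ska over LPS (6.14% of all genes), and 2 were higher for LPS + Ska over DMSO (11.4% of all genes), with medians of 0.79, -0.04 and 0.58. Plau, which encodes the activator urokinase, was at 49.1, 55.3 and 57.9 TPM with DMSO, 93.1, 89.4 and 96.7 TPM with LPS and 52.7, 56.6 and 48.9 TPM with LPS + Ska. It rose by 0.77 with LPS (limma adjusted p = 3.2e-05) and fell by 0.81 for LPS + Ska over LPS (limma adjusted p = 0.00019), so that its LPS + Ska and DMSO columns overlapped. The activator thus differed in the direction of Mmp9. Its call for LPS + Ska over LPS held with the rebuilt values (adjusted p = 0.0019) and not with the DMSO spread (adjusted p = 0.19).

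Plaur and Serpinb2, of the same system, rose with LPS and were near the same level with skatole. Plaur, the urokinase receptor, rose by 0.80 (limma adjusted p = 2.7e-05), from 42.8, 46.8 and 47.8 TPM with DMSO to 80.5, 76.0 and 84.9 TPM with LPS, and stood at 81.8, 74.7 and 88.8 TPM with LPS + Ska, a difference from LPS of 0.02 with an interval from -0.16 to 0.20. Serpinb2, an inhibitor of urokinase, was listed at 0 in all DMSO columns and stood at 9.11, 10.9 and 7.33 TPM with LPS and 8.31, 9.30 and 7.31 TPM with LPS + Ska (limma adjusted p = 2.6e-07 for LPS over DMSO). It was tested only through its treated columns, and no fold is given against a group listed at 0. The remaining tested gene, Plgrkt, a plasminogen receptor, had a log2 difference of 0.03 with LPS (limma adjusted p = 0.82).

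Of 16 Adam17 substrates 6 were tested, of which 1 was higher (12.7% of all genes) and 3 were lower (20.0% of all genes) with LPS, 0 were called for LPS + Ska over LPS, and 1 was higher and 3 were lower for LPS + Ska over DMSO, with medians of -0.43, -0.09 and -0.63. Tnf, the cytokine precursor that Adam17 releases, rose by 1.65 with LPS (limma adjusted p = 0.00013), from 53.1, 52.8 and 103 TPM with DMSO to 210, 209 and 212 TPM, and stood at 207, 205 and 209 TPM with LPS + Ska. The columns with and without skatole overlapped. Tnfrsf1a, its receptor, fell by 1.16 (limma adjusted p = 1.7e-06), Il6ra, the interleukin-6 receptor, by 0.85 (limma adjusted p = 0.00038), and Csf1r, the receptor for the macrophage growth factor, by 0.67 (limma adjusted p = 2e-05). Shedding itself cannot be read from RNA.

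**Figure D4:**
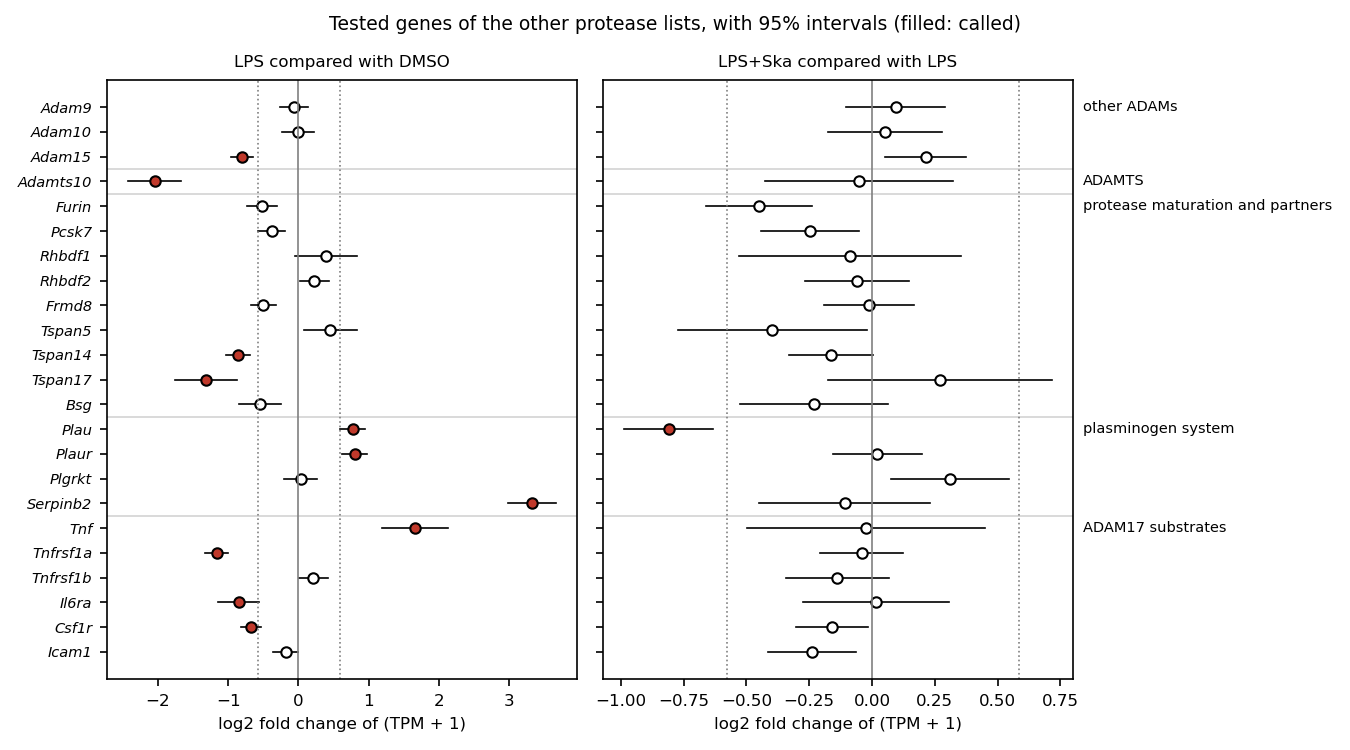
Points are limma log2 fold changes of TPM + 1 with 95% intervals for the 23 tested genes of the other protease lists, for LPS over DMSO (left) and LPS + Ska over LPS (right), with filled points for called genes and dotted lines at fold changes of 1.5 and 0.67. On the left 11 genes are called, Serpinb2 (3.32) and Adamts10 (-2.05) lying farthest out, and on the right only Plau (-0.81) is called.

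The labelled cell type was checked against marker genes. All 8 macrophage markers were tested, and the summed level of the list was 12310 to 13270 TPM with DMSO, 7273 to 7673 TPM with LPS and 13560 to 13850 TPM with LPS + Ska. Most of that sum was Lyz2, the lysozyme gene, which fell by 1.05 with LPS and rose by 1.19 with skatole (limma adjusted p = 7.3e-07 and 4.3e-06). Of the 8 markers, 0 were higher (12.7% of all genes) and 3 lower (20.0% of all genes) with LPS, namely Lyz2, Spi1 and Csf1r. For LPS + Ska over LPS, 1 was higher (Lyz2, against 3.35% of all genes) and 1 lower (Fcgr1, against 6.14% of all genes). Fcgr1 lost its call with median-ratio scaling and without LPS replicate 7. For LPS + Ska over DMSO, 1 was higher (Cd14, against 11.4% of all genes) and 2 lower (Spi1 and Csf1r, against 25.3% of all genes). Of 8 neutrophil markers, Elane, Ltf, Ngp, S100a9 and Ly6g were at 0 in all columns and the sum was at most 3.55 TPM. S100a8 was above 0 in all 9 columns, with means of 1.52, 0.945 and 1.72 TPM with DMSO, LPS and LPS + Ska. It was tested and not called, while Mpo and Camp were detected below the limit for testing. Of 8 fibroblast or chondrocyte markers Pdgfra, Acan and Sox9 were at 0 and the sum was at most 0.312 TPM, and of 6 B or T cell markers 5 were at 0 and the sum was at most 0.672 TPM. Neutrophils store Mmp8 and Mmp9, and fibroblasts and chondrocytes are known for Mmp13 and Mmp14.

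Genes of osteoclasts, the bone-resorbing cells that RAW264.7 cells can form and in which Mmp9 is abundant, were read as a further marker list. Of 6 osteoclast markers 5 were tested and Calcr, the calcitonin receptor, was at 0 throughout. With LPS, Acp5, Ctsk and Atp6v0d2 were higher (12.7% of all genes) and Ocstamp was lower (20.0% of all genes). Dcstamp had a log2 difference of -0.03. Ctsk (DMSO mean 0.436 TPM) met the limit for testing only through the treated columns, so nothing is read from the count called higher. The calls of Ctsk and Ocstamp were lost with the DMSO spread (adjusted p = 0.1 and 0.069). The sum of the list was 68.9 to 81.2 TPM with DMSO, 116 to 129 TPM with LPS and 96.5 to 101 TPM with LPS + Ska. Atp6v0d2, a proton pump subunit, was at 4.63, 3.36 and 4.52 TPM with DMSO, 25.0, 26.6 and 23.3 TPM with LPS and 12.1, 14.8 and 9.33 TPM with LPS + Ska. It rose by 2.34 with LPS (limma adjusted p = 3e-06) and fell by 1.01 for LPS + Ska over LPS (limma adjusted p = 0.0022). It alone of the 5 was called for LPS + Ska over LPS, Acp5 (-0.05), Ctsk (-0.18), Dcstamp (-0.26) and Ocstamp (-0.53) not being called. The part of Atp6v0d2 and the other markers in the Mmp9 result was not tested. In bulk samples fewer cells that express a gene and less RNA per cell cannot be told apart.

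The genes whose log2(TPM + 1) over the 9 columns followed Mmp9 most closely were Ifi202b, AC122306.1, Cth, Rab15 and 3830403N18Rik, with Pearson r from 0.9969 to 0.9988. Ifi202b, an interferon-inducible gene, had means of 1.84, 50.3 and 30.0 TPM in the DMSO, LPS and LPS + Ska groups. Cth, which encodes an enzyme of cysteine synthesis, had means of 5.46, 27.9 and 19.2 TPM. For Mmp12, chosen for this after its values were seen, they were Ndufc1, Slc7a11, Yipf4, Klra2 and Cdk17, with r from 0.9938 to 0.9968. Slc7a11, the cystine transporter, had means of 6.73, 27.8 and 72.2 TPM. These correlations describe 9 columns in 3 groups, 6 of them tied, and carry no p-value.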

How the data were processed

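RNA-seq of RAW264.7 cells (DMSO, LPS and LPS + Ska, 3 samples each) was deposited by the authors as a table of TPM values. The submitters' processing notes list fastp 0.20.1, HISAT2 2.2.1, StringTie 2.0 and the build mm10 (GRCm38), and do not state strandedness. Per the labels the treatment lasted 24 h, while the study's methods state a longer time. TPM keeps no depth, so no counting interval could be given, and low values are the least certain. Symbols matched 55141 of 55401 identifiers. Coordinates were taken from a GRCm38 gene annotation and promoter sequences from RefSeq (GRCm38.p6).

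Values were fitted as log2(TPM + 1) with limma 3.58.1 (R 4.3.3), using lmFit and eBayes with an intensity trend, all 9 columns in 1 model, for genes with a mean of at least 1 TPM. P-values were two-sided and adjusted by Benjamini-Hochberg over the 12819 genes, and calls also needed a fold change above 1.5 or below 0.67. All members were named, and from each other list the genes called in any comparison (at most 4, by size of change), with the 5 genes most correlated with Mmp9. A listed gene is not reported here. The members and lists were chosen with earlier results of these data known. The script was tested on simulated data, in which treated columns tied in this way gave p below 0.05 for unchanged genes more often than independent columns did, so the p-values given are too small if the columns arose in that way. The alternatives were a pseudocount of 0.1, no filter and a filter of 5 TPM, median-ratio scaling, a replicate block, rescaling without mitochondrial and ribosomal genes, a fit without the intensity trend, a fit of only the groups compared, the adjusted p alone, 2 rebuilt values per treated group, each column left out in turn and, added after the data were seen, 1 column per treated group with the DMSO spread. The deviations of same-numbered LPS and LPS + Ska columns had r = 0.384, 0.151 and 0.128, in the order of the replicate numbers. In each treated group 1 column was the mean of the others, and this tie alone can make such deviations correlate. These values therefore cannot show whether the numbers paired the columns, and no label gives a shared origin. Pairs with DMSO had r from -0.032 to 0.080.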

Additional observations from a re-analysis of the deposited data

How the results depend on the processing

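The depth behind each TPM value is unknown, and the tied columns leave the spread of the treated groups uncertain. Of 300 results of the tested members over the alternatives, 289 kept their direction and call. The filters, the replicate block, the fit without the intensity trend and that of only the groups compared left each log2 difference unchanged. So did the adjusted p alone, so in these only the call could change. With 1 column per treated group and the DMSO spread, LPS + Ska over LPS had 0 members and 0 of all genes called, Mmp9 (-0.84), Mmp12 (1.42) and Mmp19 (0.81) losing their calls. Fewer genes were tested with a mean of at least 5 TPM, which removed Mmp12 and Mmp19 and left 1 member called in each comparison. The adjusted p alone called 5 members for LPS over DMSO, adding Timp1 (0.45) and Adam8 (-0.28), and 3 for LPS + Ska over DMSO, adding Adam8 (-0.23). Over all genes it called 7734, 3663 and 8116 in place of 4189, 1216 and 4700 for LPS over DMSO, LPS + Ska over LPS and LPS + Ska over DMSO. A pseudocount of 0.1 ended the Mmp9 call for LPS + Ska over LPS (-0.90). The sign of Adam17 turned without DMSO replicate 5 for LPS over DMSO (-0.016, the values with 1 column left out running up to 0.15), and for LPS + Ska over DMSO with median-ratio scaling (0.12), without DMSO replicate 7 (0.036, the lowest value with 1 column left out being -0.13) and without LPS + Ska replicate 7 (0.0099), the cause of which was not tested.

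Leaving out 1 column at a time kept 3, 3 and 2 members called in the comparisons in that order, and 3996 to 4236, 905 to 1499 and 4514 to 4810 genes over all. With a replicate block, 4235, 1198 and 4729 genes were called and no member's call changed. Median-ratio scaling moved the share of called genes that were higher from 38.9% to 47.8%, from 35.3% to 52% and from 31% to 48.4%, with the same member calls.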
